A study of Homo sapiens with 12 samples.

Results

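The SOX family of transcription factors was described by 10 of its genes, SOX2, SOX4, SOX7, SOX8, SOX9, SOX11, SOX12, SOX13, SOX17 and SOX18, out of 32080 gene symbols on the array. They were found as every probe whose gene name equals one of these symbols, which gave 12 probes, 3 of them for SOX13 and 1 for each other gene. RNA came from Colo320DM, a colorectal cancer cell line, on 12 one-color arrays from 6 stable clones, 3 carrying a TET1 knockdown vector that expresses an artificial microRNA and 3 carrying the negative control plasmid of the same vector series. All clones were selected with G418, and each was measured without drug (mock) and after 72 h in 1 µM of the demethylating nucleoside 5-aza-2'-deoxycytidine, written 5-aza-dC. This made 4 groups of 3 arrays: control mock, TET1 knockdown mock, control 5-aza-dC and TET1 knockdown 5-aza-dC. The clones came from isolated GFP-positive colonies, so the spread within a group is the spread between clones, and clones with the same number in the control and knockdown sets are different clones.

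SOX proteins bind DNA through a high mobility group domain and steer cell fate in the embryo and in adult stem cells. By sequence they fall into groups: SOX2 belongs to SoxB1, SOX4, SOX11 and SOX12 to SoxC, SOX13 to SoxD, SOX8 and SOX9 to SoxE, and SOX7, SOX17 and SOX18 to SoxF. In the intestine SOX9 is known from crypt stem and progenitor cells, and SOX17 is known as an endoderm factor that antagonizes beta-catenin and TCF. 5-aza-dC is incorporated into DNA and traps DNA methyltransferases, and TET1 is a dioxygenase that oxidizes 5-methylcytosine.

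Detection was stable for 5 of the 12 probes, which passed the background flag on all 12 arrays, against 39.1% of the 50599 distinct probes on the array, and 4 were so on no array, against 35.8%. "Well above background" is the flag that the image software gives each spot. Signals are given as log2 values relative to the 75th percentile of the array, so that 0 is the 75th percentile and each unit is a doubling. The lowest signal of any probe well above background lay between -4.34 and -3.56 on the 12 arrays. Levels of different genes come from different probes and were not compared with each other. The mRNA level per cell and the share of cells that express a gene cannot be told apart in these bulk samples.

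The arrays lay on 2 slides, unevenly spread over the groups. The 3 treated control clones, treated knockdown clone 2 and mock control clone 3 were on slide 2 and the other 7 arrays on slide 1. TET1 was lower in knockdown clones at all 3 of its probes (differences of -0.93, -1.35 and -1.08 in mock clones, limma adjusted p = 0.276, 0.243 and 0.395), without a call. At its brightest probe treated knockdown clone 2, at 4.31, lay within the treated controls, at 4.06 to 4.42. At the other probes every treated knockdown clone lay below every treated control. The highest knockdown and lowest control values were 1.02 and 1.99 at A_19_P00806490, and -1.57 and -0.77 at A_23_P322756. Of 9 colorectal epithelium markers, 4 (CDX2, KRT8, KRT18 and KRT20) were well above background on all 12 arrays, and CDH1 and LGALS4 on none. None of 5 endothelial markers was well above background on all 12 arrays.

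The sequences below are from probes, where signals are read, and from promoters, where nothing was measured here. The first lines give the leading 30 bases of the 60-base SOX11 probe at chr2:5841428-5841487 (hg19, + strand), the whole probe of SOX13 with the highest signal at chr1:204086258-204086317 (hg19, + strand), with its CAG triplets in capitals, and the leading 30 bases of the SOX13 probe that moved with 5-aza-dC at chr1:204088800-204088859 (hg19, + strand). The other lines give the 250 bases before the transcription start of SOX4 and SOX12, from RefSeq on GRCh38.p14, with CpG dinucleotides, the sites that DNA methylation uses, in capitals.
SOX11 probe A_24_P302584: agtacactccaatgtctcttttgcaagagt
SOX13 probe A_33_P3325110: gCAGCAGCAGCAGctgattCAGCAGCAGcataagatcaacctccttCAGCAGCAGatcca
SOX13 probe A_33_P3325120: tgttccagcatcagttcaaaagtttcaagt
SOX4 chr6:21593501-21593750: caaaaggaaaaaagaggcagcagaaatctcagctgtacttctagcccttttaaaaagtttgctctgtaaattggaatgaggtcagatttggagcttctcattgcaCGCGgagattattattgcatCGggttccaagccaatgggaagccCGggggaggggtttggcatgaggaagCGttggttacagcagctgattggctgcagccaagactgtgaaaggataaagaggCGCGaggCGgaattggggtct
SOX12 chr20:325302-325551: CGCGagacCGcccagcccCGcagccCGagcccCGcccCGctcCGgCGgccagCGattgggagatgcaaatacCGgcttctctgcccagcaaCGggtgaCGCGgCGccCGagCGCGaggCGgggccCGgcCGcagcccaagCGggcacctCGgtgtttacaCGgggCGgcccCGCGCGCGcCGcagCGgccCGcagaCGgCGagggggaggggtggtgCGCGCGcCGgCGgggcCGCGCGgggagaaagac

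The SOX11 probe holds 1 CAG triplet and 35% G and C, while the brightest SOX13 probe holds 10 CAG triplets in its 60 bases. RefSeq promoter sequences matched 4 of the 10 genes. The 250 bases before the start held 42 CpG in SOX12, 20 in SOX2 and 8 each in SOX4 and SOX13, against a median of 11 over 35116 promoters. At least as many CpG as in SOX12 were found in 1.38% of promoters, and at least as many as in SOX4 or SOX13 in 56.3%. The motif AACAAT, searched on both strands without regard to overlap with other motifs, occurred in none of the 4 and in 8.98% of all promoters.

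The largest movements in the family were those of SOX11 and SOX17 after 5-aza-dC. SOX11, a SoxC factor of the developing nervous system, was well above background only on the 3 treated control arrays. SOX17, the endoderm factor, was well above background on all 6 treated arrays and on 1 of 6 mock arrays. SOX4, the SoxC factor known from progenitor cells and tumours, was lower after treatment over all clones. SOX2, SOX7, SOX9 and SOX18 were well above background on no array.

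**Figure D1:**
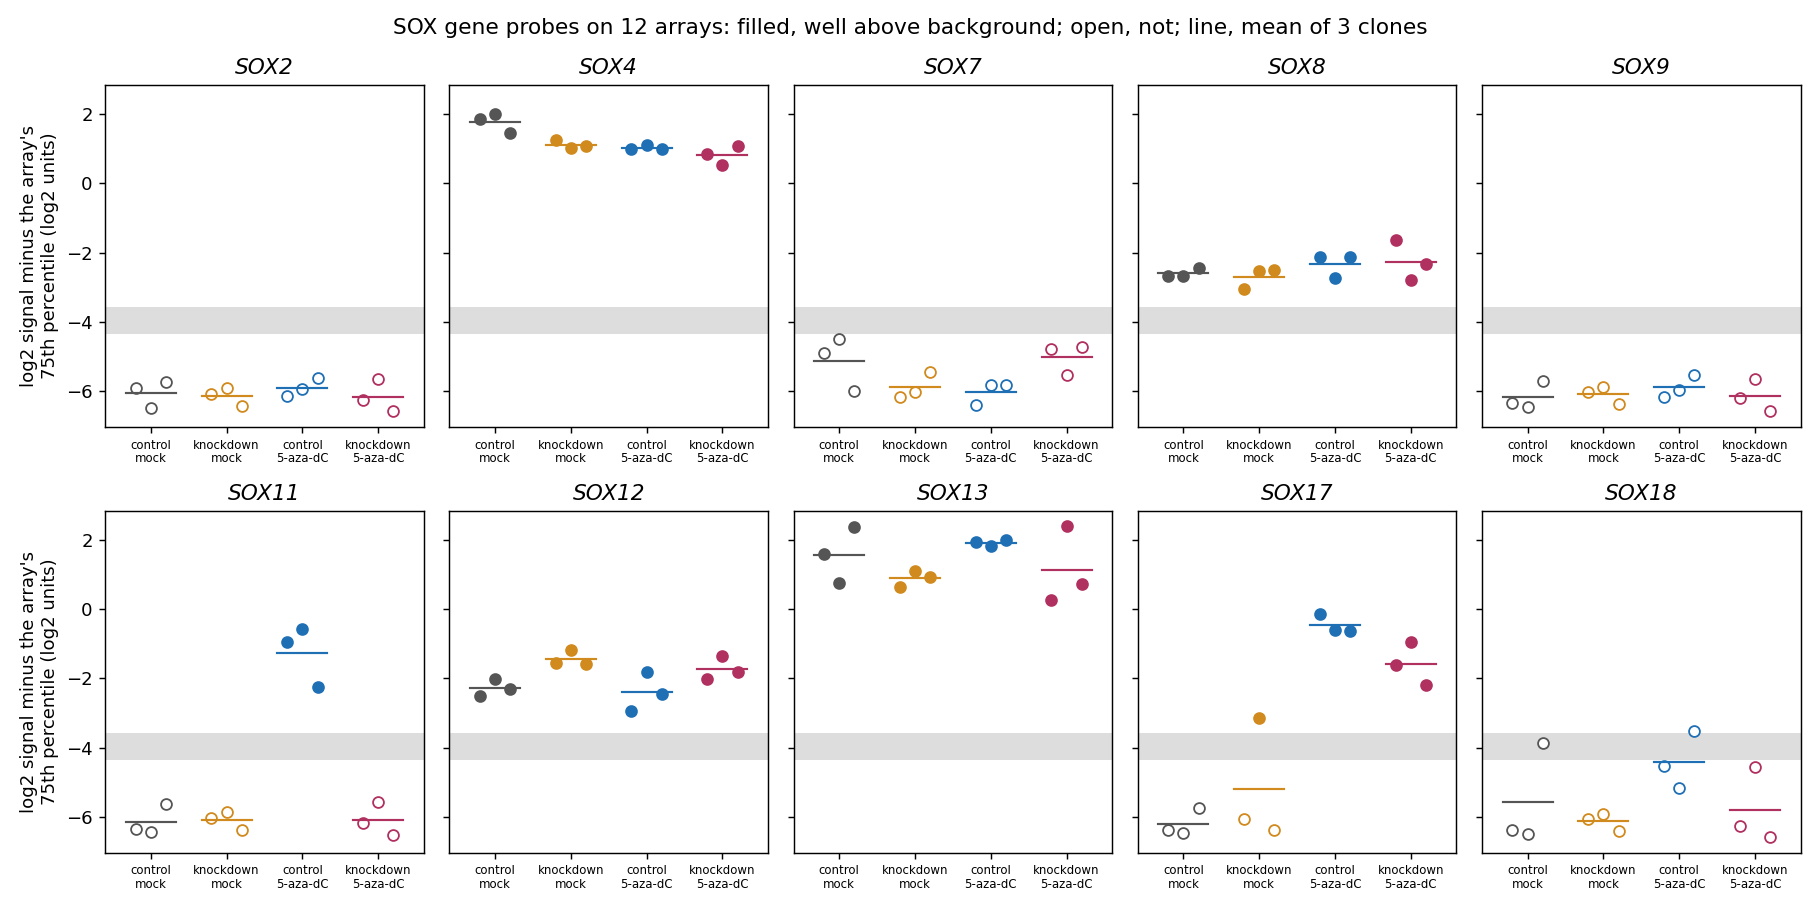
Signal of the brightest probe of each of the 10 SOX genes (log2, relative to the array's 75th percentile) in the 4 groups, 3 clones each in the order 1 to 3 from left to right. Filled points are well above background, open points are not, short lines are group means, and the grey band from -4.34 to -3.56 spans the lowest well-above-background signal of the arrays; SOX11 is filled only in treated control clones and SOX17 in every treated clone.

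In control clones, SOX11 measured -6.34, -6.45 and -5.64 on the mock arrays of clones 1, 2 and 3, and none was well above background. After 5-aza-dC the same clones measured -0.94, -0.56 and -2.25, and all 3 were well above background. In knockdown clones SOX11 measured -6.02, -5.84 and -6.38 on mock arrays and -6.19, -5.57 and -6.51 after 5-aza-dC, and no array was well above background. The treated control clones thus lay apart from the other 9 arrays, with control clone 3 the lowest of them. Only 40 of 50599 probes (0.0791%) were well above background on just those 3 arrays, and 8 (0.0158%) on just the 3 treated knockdown arrays.

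SOX11 was at least 7.05-fold higher in treated than in mock control clones, since the mock level is known only as a bound. The limma difference was 4.89 (SE 0.47, adjusted p = 0.00378, n = 3 and 3), in a comparison in which 5.22% of 24641 probes were called. SOX11 entered this and the next comparisons only through the treated control arrays, where it is high, so its calls are a description. With no filter on dim probes its limma adjusted p was 0.00705 here. The clone-wise responses were 5.40, 5.89 and 3.39. The exact permutation test gave p = 0.1, the smallest two-sided value that 3 against 3 allows. On slide 2 alone, with 1 mock array, the difference was 4.39 (with slide as a block, limma adjusted p = 0.0489). Only control clone 3 had both arrays on 1 slide, so blocking on both clone and slide gave that clone's own response, 3.39 (limma adjusted p = 0.075). The methods' t-test did not call the gene (adjusted p = 0.0561). With any 1 control clone left out, too few arrays were well above background to test it. SOX11 had no test in knockdown clones, where it passed no filter, and its responses there were -0.17, 0.28 and -0.14.

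Among treated clones SOX11 was at least 6.71-fold lower in knockdown than in control clones (limma difference -4.84, SE 0.48, adjusted p = 0.0433), in a comparison in which 0.096% of 24998 probes were called. With slide as a block the difference was -4.31 (limma adjusted p = 0.0946), and on slide 2 alone it was the same size, with 1 knockdown against 3 control clones. The call was also lost without knockdown clone 1 or 3 (limma adjusted p = 0.16 and 0.226) and with no filter on dim probes (limma adjusted p = 0.0644). The difference in response between knockdown and control clones, the interaction, was -4.90 (SE 0.61, limma adjusted p = 0.0354), in a comparison in which 0.0366% of 27287 probes were called. The response of every knockdown clone lay below that of every control clone. With the clone as a block, which pairs each clone's mock and treated arrays, the interaction kept its size but not its call (limma adjusted p = 0.337), and with no filter on dim probes the limma adjusted p was 0.0532. It also lost the call without any 1 knockdown clone, and without any 1 control clone it was not tested, because SOX11 then had fewer than 3 arrays well above background.

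The 6 neuroendocrine markers moved with SOX11. Their summed log2 level was -3.01 to -1.63 in mock control clones, 0.31 to 2.56 in treated control clones and -2.16 to -1.87 in treated knockdown clones, with 2 of the 6, CHGA and CHGB, well above background on all treated control arrays and 3 on none of them. Their part in the SOX11 result was not tested.

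SOX17 measured -6.38, -6.48 and -5.73 on mock arrays of control clones 1, 2 and 3, none well above background. After 5-aza-dC these clones measured -0.14, -0.61 and -0.65. Mock knockdown clones measured -6.06, -3.13 and -6.38, with clone 2 well above background and the others not. After 5-aza-dC the knockdown clones measured -1.62, -0.95 and -2.18, all well above background. All 6 treated arrays lay above all 6 mock arrays, and every treated knockdown array lay below every treated control array. Well above background on all treated arrays and at most 1 mock array was the pattern of 331 probes (0.654%).

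In control clones SOX17 was at least 12.2-fold higher after 5-aza-dC (limma difference 5.73, SE 0.27, adjusted p = 0.000415). It passed the filter there only through the treated arrays, and with no filter the limma adjusted p was 0.000884. Blocking on both clone and slide again gave the response of control clone 3 alone, 5.09 (limma adjusted p = 0.0718). SOX4, SOX11 and SOX17 were the 3 of 6 tested SOX genes whose groups did not overlap in control clones, against 32.3% of all probes. SOX11 and SOX17 were tested there only because their treated arrays were well above background, so this count is a description. Among the rest, only SOX4 showed no overlap. Over all clones the SOX17 difference was 4.67 (SE 0.50, limma adjusted p = 0.000179), in a comparison in which 13.2% of 27287 probes were called. The exact permutation test of 6 against 6 arrays gave p = 0.00216. It shuffled the arrays freely, without regard to which share a clone or a clone type, so it is no test within clones. Non-overlap of treated and mock arrays over all clones was found for 6.02% of the probes. In knockdown clones the difference was 3.61 (SE 0.88, limma adjusted p = 0.17), in a comparison in which 2.05% of 25390 probes were called. SOX17, which passed the filter almost only through the treated arrays, was the 1 of 5 tested SOX genes without overlap there, against 19.2% of all probes. That difference is no measured fold, since 1 of 3 mock arrays was well above background. It was called when all 12 arrays shared a fit (limma adjusted p = 0.0196) and with clone and slide as blocks, which rests on knockdown clones 1 and 3 (difference 4.32, limma adjusted p = 0.00513).

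The responses of SOX17 were 6.24, 5.86 and 5.09 in control clones and 4.44, 2.18 and 4.20 in knockdown clones. In 5 of 6 clones the mock signal was not well above background, so these responses depend on the background level, and the lowest, in knockdown clone 2, starts from the one mock signal above it. The clone types did not overlap, as was found for 9.25% of all probes, and the interaction of -2.12 was not called (SE 1.01, limma adjusted p = 1). Among treated clones the knockdown difference was -1.12 (SE 0.35, limma adjusted p = 0.21), while groups did not overlap for 24.9% of probes in that comparison. Without knockdown clone 2 it was -1.43 (limma adjusted p = 0.0145), a setting in which 7730 probes were called in place of 24. There all treated controls were on slide 2 and the treated knockdown clones on slide 1, so clone type and slide cannot be told apart. With all clones and slide as a block the difference was -0.48 (limma adjusted p = 0.558).

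Markers of other cell types moved with treatment beside SOX17. The summed log2 level of 3 leukocyte markers was 1.25 to 2.45 in mock and 2.57 to 3.38 in treated control clones, and 0.32 to 1.11 and 1.24 to 3.40 in knockdown clones. That of 5 endothelial markers was -2.39 to -1.81 in mock and -3.22 to -2.67 in treated control clones. In knockdown clones it was -1.77 to -1.46 in mock and -2.49 to -1.56 after 5-aza-dC, with overlap. That of 4 fibroblast markers, -1.94 to 1.16 in mock and 0.58 to 1.95 in treated control clones, overlapped, while in knockdown clones it was -1.86 to -0.72 in mock and -0.01 to 0.95 after 5-aza-dC, without overlap. Of the 4 fibroblast markers, 1 was called higher in control clones and 1 over all clones. Of the 5 endothelial markers, 1 was called lower in control clones and 2 over all clones. Of the 3 leukocyte markers, 1 was called higher over all clones. The part of these markers in the SOX17 result was not tested.

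**Figure D2:**
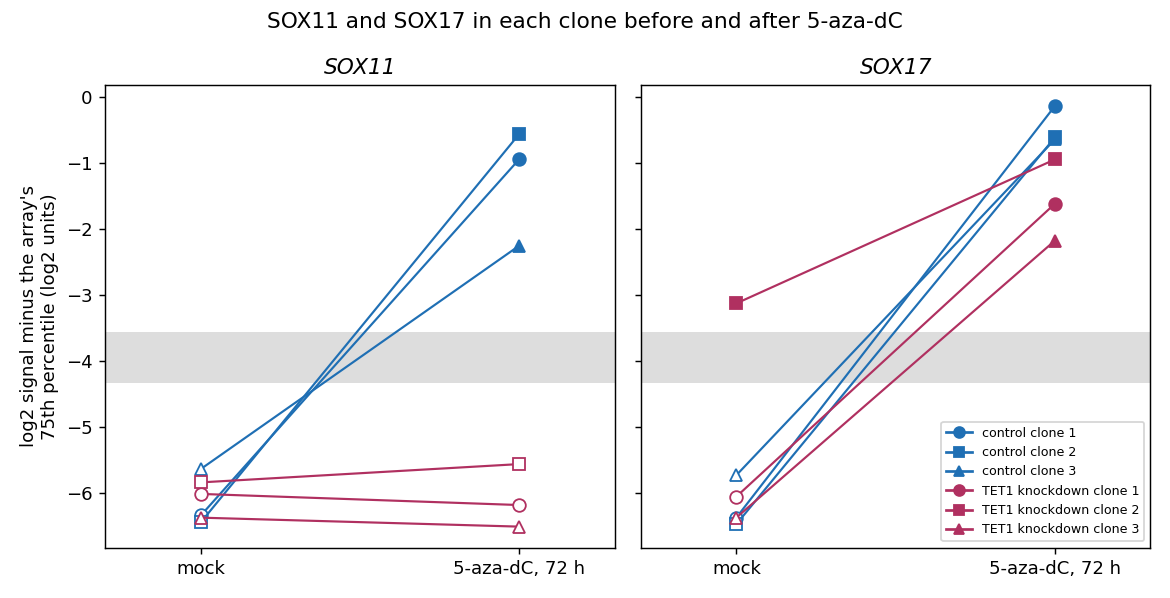
SOX11 (left) and SOX17 (right) signal (log2, relative to the array's 75th percentile) in each clone, mock and after 5-aza-dC, with lines joining the arrays of a clone. Blue marks control and red TET1 knockdown clones, filled symbols are well above background, open ones not, and the grey band spans -4.34 to -3.56; SOX11 lines rise in the 3 control clones, and SOX17 lines rise in all 6 clones.

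Among the other SoxC genes, SOX4 was well above background on every array. It measured 1.86, 2.00 and 1.45 in mock control clones 1, 2 and 3 and 1.00, 1.10 and 0.99 in the same clones after 5-aza-dC. In knockdown clones it measured 1.25, 1.02 and 1.09 on mock arrays and 0.85, 0.53 and 1.08 after 5-aza-dC. The order of the group means was control mock, knockdown mock, control 5-aza-dC and knockdown 5-aza-dC, and only the first did not overlap with its neighbour. The response was negative in all 6 clones, from -0.91 to -0.01. Over all clones the difference was -0.52 (SE 0.14, limma adjusted p = 0.0363), while in control clones alone it was -0.75 (SE 0.20, limma adjusted p = 0.0838). SOX4 was called in control clones when arrays were scaled to their median (-0.96, limma adjusted p = 0.0374) and with all 12 arrays in one fit (limma adjusted p = 0.0499). It was also called without control clone 3 (-0.89, limma adjusted p = 0.0295), where 5346 probes were called in place of 1286. There the mock controls were on slide 1 and the treated controls on slide 2, so treatment and slide cannot be told apart. On slide 2 alone, with 1 mock array, the difference in control clones was -0.42. With slide as a block the value over all clones was -0.29 (limma adjusted p = 0.125). The call over all clones was also lost on leaving out any 1 clone except control clone 3 (limma adjusted p = 0.0631 to 0.161). Between mock knockdown and control clones SOX4 differed by -0.65 (SE 0.21, limma adjusted p = 0.391).

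SOX12, the third SoxC gene, was well above background on every array. It measured -2.50, -2.01 and -2.32 in mock control clones and -1.56, -1.17 and -1.58 in mock knockdown clones, without overlap. After 5-aza-dC it measured -2.94, -1.81 and -2.44 in control clones and -2.01, -1.37 and -1.81 in knockdown clones, with overlap. The mock difference was 0.84 (SE 0.22, limma adjusted p = 0.36), in a comparison in which 0.137% of 24753 probes were called, and the treated difference was 0.66 (SE 0.34, limma adjusted p = 0.32). SOX4 and SOX12 were thus 2 of 4 tested SOX genes whose groups did not overlap in mock clones, against 21.3% of all probes, and none was called.

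SOX13, the SoxD gene, had 3 probes that did not move alike. The brightest measured 1.58, 0.74 and 2.36 in mock control clones, 0.65, 1.11 and 0.91 in mock knockdown clones, 1.93, 1.82 and 1.98 in treated control clones and 0.28, 2.39 and 0.73 in treated knockdown clones. Its groups overlapped in all comparisons, and none was called (limma adjusted p = 0.424 to 1). The probe A_33_P3325120 rose in control clones from -3.06, -3.33 and -3.16 to -2.25, -2.33 and -2.33. That difference was 0.88 (SE 0.16, limma adjusted p = 0.0298). With slide as a block it was 0.86 (limma adjusted p = 0.102), and with the clone as a block its limma adjusted p was 0.058. Its adjusted p ranged from 0.0301 to 0.545 over all alternatives. In mock knockdown clones 1 and 3 this probe was not well above background, at -4.37 and -4.39, while clone 2 measured -1.97. The third probe, A_23_P85703, differed by -0.28 in the same comparison (limma adjusted p = 0.484), opposite in sign.

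**Figure D3:**
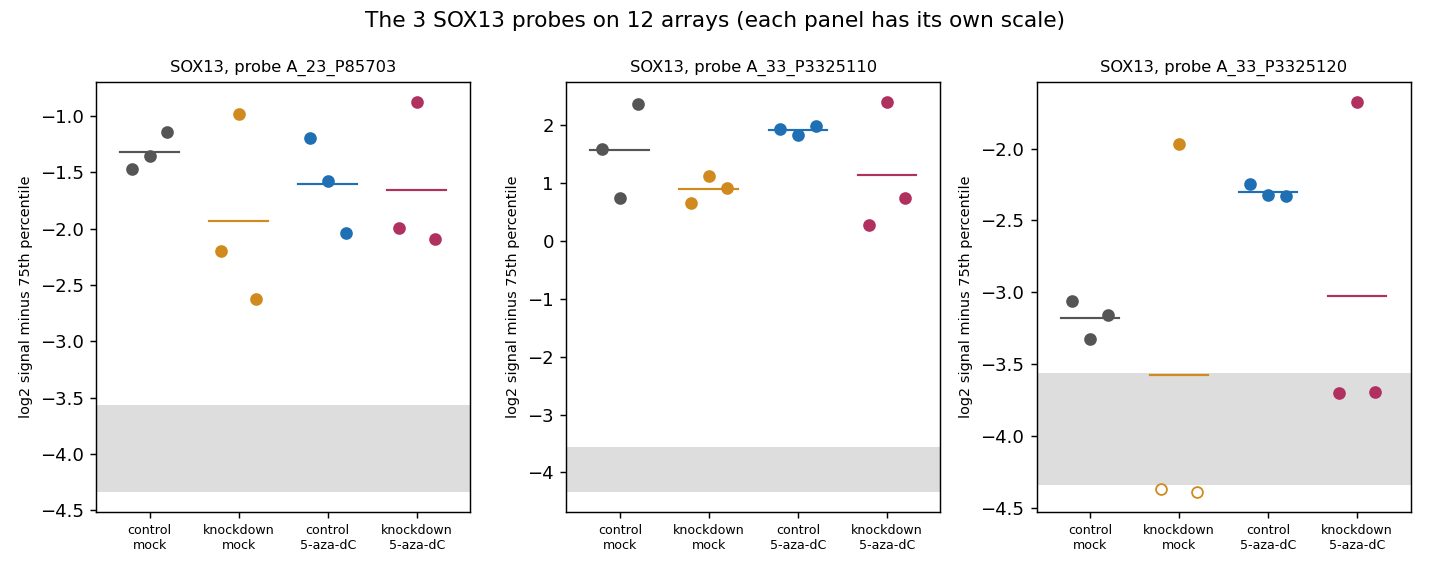
The 3 SOX13 probes in the 4 groups (log2 signal relative to the array's 75th percentile, each panel with its own axis), 3 clones each in the order 1 to 3. Filled points are well above background and open ones not, lines are group means and the grey band spans -4.34 to -3.56; at A_33_P3325120 the 3 treated control clones lie above the 3 mock control clones, and knockdown clone 2 is the highest knockdown clone at each probe in both treatments.

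Of the SoxE genes, SOX8, a neural crest factor, was well above background on every array and was called in no comparison. It measured -2.66, -2.67 and -2.44 in mock control clones and -3.06, -2.52 and -2.50 in mock knockdown clones. After 5-aza-dC it measured -2.12, -2.74 and -2.12 in control clones and -1.65, -2.79 and -2.33 in knockdown clones. The groups overlapped in all comparisons, and the difference over all clones was 0.35 (SE 0.21, limma adjusted p = 0.281). SOX9, the crypt factor, stayed between -6.57 and -5.54 and SOX2, the pluripotency factor, between -6.56 and -5.61, on no array well above background. SOX7, a SoxF factor of endothelium and endoderm, ranged from -6.40 to -4.48 and SOX18, known from blood and lymphatic vessels, from -6.58 to -3.52. These 4 genes had only bounds on their level and passed no filter for a test.

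Of the 10 genes, 4 were tested between mock knockdown and control clones, 6 between treated knockdown and control clones, 6 for 5-aza-dC in control clones, 5 in knockdown clones and 6 over all clones. SOX11 passed the filter only through the treated control arrays, and SOX17 almost only through the treated arrays, so the counts are a description. They were 0 called in mock clones (2 at an unadjusted p under 0.05, beside 11.2% of all probes, and 0 when the methods' t-test was adjusted), 1 lower in treated knockdown clones, 2 higher in treated control clones, 0 in knockdown clones (1 unadjusted, beside 9.15% of all probes, and 0 by the methods' t-test), and 2 higher (SOX11 and SOX17) and 1 lower (SOX4) over all clones, where the SOX11 value averages over both clone types. The median difference of the tested SOX genes for 5-aza-dC over all clones was 0.32, beside -0.05 over all probes. SOX11 and SOX17 are among these genes, so the median too is a description and was not read as a shift of the family.

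**Figure D4:**
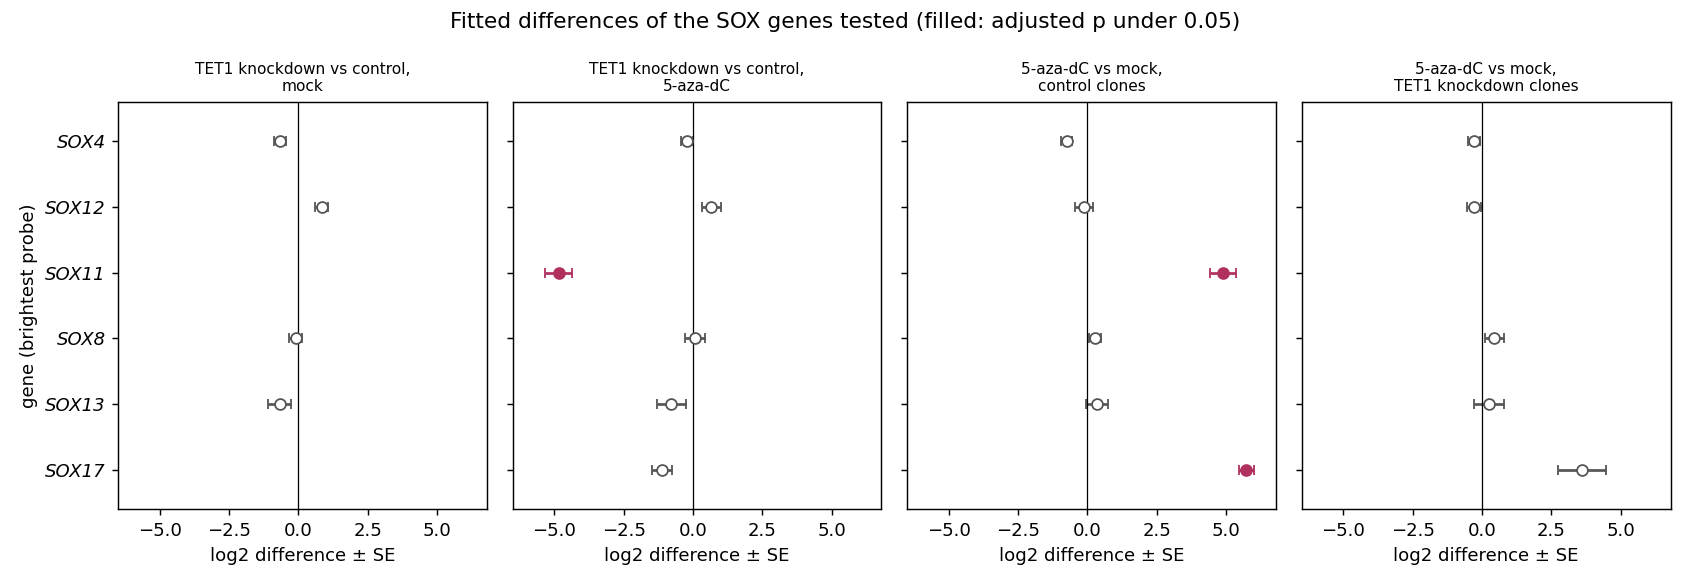
Fitted log2 differences with SE from limma for the brightest probe of each SOX gene tested, in 4 comparisons of 3 against 3 arrays; rows without a point were not tested. Filled red points have an adjusted p under 0.05: SOX11 among treated clones (-4.84), and SOX11 (4.89) and SOX17 (5.73) for 5-aza-dC in control clones, where the mock arrays are not well above background.

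Of the 9 other SOX genes examined, 3 were well above background on every array, 5 on none, and none was called in any comparison. SOX5, a SoxD gene of cartilage and neurons, lay between -1.91 and -0.04. SOX6, its close relative, was lower after 5-aza-dC in all 6 clones, by -0.79, -0.80 and -0.79 in control clones and -0.88, -0.42 and -0.28 in knockdown clones (over all clones -0.66, SE 0.28, limma adjusted p = 0.132). SOX21, a SoxB gene, lay between -3.19 and -0.52. SOX14, singled out after its values were seen, was well above background only in knockdown clone 1, at -2.25 on its mock and -2.57 on its treated array.

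Related genes were read from lists around the SOX factors. Of 5 targets of SoxC factors, 3 were tested in each comparison and only TUBB3, a neuronal tubulin, was called. TUBB3 measured 1.99, 1.88 and 2.42 in mock control clones and 4.74, 4.62 and 4.27 after 5-aza-dC, and 0.09, -1.45 and -0.79 in mock knockdown clones and 1.33, 0.85 and -0.05 after it. Treated control clones were the highest, without overlap with any other group. Mock knockdown clones also lay below every mock control clone. TUBB3 rose after 5-aza-dC in each knockdown clone too, by 1.24, 2.30 and 0.74, and its interaction was not called. TUBB3 was higher after 5-aza-dC in control clones (2.45, SE 0.22, limma adjusted p = 0.00306) and lower in treated knockdown than treated control clones (-3.83, SE 0.38, limma adjusted p = 0.0411). The last call was lost with slide as a block (limma adjusted p = 0.0891) and on leaving out any 1 clone except knockdown clone 2 (limma adjusted p = 0.0713 to 0.27). Without knockdown clone 2, clone type and slide cannot be told apart among treated clones. The rise in control clones was not called without control clone 1 or 2 (limma adjusted p = 0.129 and 0.237).

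Of 5 pluripotency partners of SOX2, 4 were tested after 5-aza-dC and 3 were called higher over all clones, where 13.2% of all probes were called. SALL4 and LIN28B passed the filter mainly through the treated arrays, so the count is a description. SALL4, a zinc finger factor of embryonic stem cells, differed by 4.54 (SE 0.72, limma adjusted p = 0.00246), LIN28B, an inhibitor of let-7 maturation, by 3.47 (SE 0.47, limma adjusted p = 0.000933) and POU5F1, known as OCT4, by 1.01 (SE 0.23, limma adjusted p = 0.0177). SALL4 and LIN28B were well above background on all 6 treated arrays, and on 1 and 2 mock arrays, so that their changes are no measured folds. POU5F1 lost its call with a slide block (0.70, limma adjusted p = 0.101) or without control clone 2 or any 1 knockdown clone (limma adjusted p = 0.0536 to 0.0854). POU5F1 has near-identical pseudogenes, so its probe may not be specific. None of 6 endoderm partners of SOX17 and none of 5 targets of SOX9 was called in any comparison. Of 5 beta-catenin and TCF genes, TCF7L2, which encodes the TCF4 protein, was called for 5-aza-dC, lower in control clones (-1.11, SE 0.20, limma adjusted p = 0.0328) and over all clones (-0.81, SE 0.14, limma adjusted p = 0.00394). Its probes disagreed, with differences over all clones of -0.52, 0.25 and 0.03 at the other 3. In control clones the call was lost with slide as a block (limma adjusted p = 0.0983) and without control clone 1 or 2 (limma adjusted p = 0.393 and 0.518).

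The genes most like each SOX gene over the 12 arrays, among 16903 symbols, are a description, since the arrays share groups and slides. SOX17 ran closest to C2CD4A (Pearson r = 0.984) and LOC389634 (0.982). SOX13, read only at its brightest probe, the one rich in CAG triplets, ran closest to C21orf58 (0.973), VAMP2 (0.972) and PIKFYVE (0.971). SOX4 ran closest to VSIG10 (0.951), HSPA8 (0.941) and PHF1 (0.938). SOX12 ran closest to XLOC_l2_009184 (0.935), EPS15 (0.924) and RPL35 (0.924), and SOX8 to GNB4 (0.845), XIAP (0.803) and AGXT2L1 (0.788). SOX11 was well above background on too few arrays for this.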

How the data were processed

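Total RNA of Colo320DM clones was labeled with Cy3 and hybridized to one-color Agilent arrays. Spot intensity in the deposited scanner files was extracted by the authors with Feature Extraction 10.7.3.1 (10.7 in the submitters' processing notes), background-corrected and not normalized between arrays. Values of the deposited series table are intensity too, and they differed by at most 0.497% from the scanner files. Probe positions are hg19, as in the files.

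Control spots (4259 of 62976 per array) and outlier spots (268 to 395) were left out, spots of a probe were averaged, and log2 intensity was centered on each array's 75th percentile over the 50599 distinct probes, computed from the deposited signal. No spot was saturated. A probe was tested when well above background on at least 3 arrays of a comparison. Groups were compared with limma 3.58.1 in R 4.3.3 (lmFit and eBayes), p-values were adjusted by Benjamini-Hochberg over all probes tested, and 0.05 was the threshold. Each gene was represented by its probe with the highest mean; every probe of the 10 genes is reported. Named besides these were TET1 as the check of the knockdown labels, other SOX genes on every array or called, called genes of related lists, and the 3 genes with the highest Pearson r to each SOX gene on at least 6 arrays, of which 1 is not reported here. "At least" folds set the bright group's mean against the higher of the lowest well-above-background signal and the dim probe's own signal, per array. The methods' t-test was run on the same values as an alternative. The number of arrays, 3 per group, limits the precision. The SOX genes and the gene lists were chosen with earlier results of these data known, and the scripts were tested on simulated data. The vector carried by each knockdown clone was not used here.

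Mock and treated arrays of the same number come from the same clone per the labels, and their deviations from the group means correlated at 0.213 to 0.316 in control and 0.431 to 0.525 in knockdown clones, so clone as a block was an alternative. Other alternatives were other scalings (array median, quantile, normexp with an offset of 50), the deposited series table, other filters, outlier spots kept, slide as a block, one fit of all 12 arrays and leaving out each clone. A 75th percentile over spots was added after seeing the data.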

Additional observations from a re-analysis of the deposited data

Results flagged for a closer look

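The interaction of clone type and 5-aza-dC was called for SOX11, which passed the filter only through the treated control arrays. The response of knockdown clones minus that of control clones was -4.90 (SE 0.61, limma interaction, adjusted p = 0.0354), and all 3 control clones lay above all 3 knockdown clones. With the clone as a block the call was lost (limma adjusted p = 0.337), as it was with no filter on dim probes (limma adjusted p = 0.0532). The adjusted p over the alternatives that tested it ranged from 0.0164 to 0.966, and the size from -5.04 to -1.51. The knockdown clones were not well above background in either treatment, so the size depends on the background level.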

How the results depend on the processing

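Between mock knockdown and control clones no SOX gene was called under any alternative. Among treated clones the count of called SOX genes, 1, was 0 with normexp and quantile normalization and without a filter on dim probes. It was also 0 with a filter on every array, with slide as a block and by the methods' t-test. On leaving out 1 clone it ranged from 0 to 3. The 3 (SOX17, the brightest SOX13 probe and SOX11) came without knockdown clone 2, where 7730 probes were called in place of 24. In that setting clone type and slide cannot be told apart. For 5-aza-dC in control clones the count of 2 was 0 with the filter on every array, which tests neither SOX11 nor SOX17, 1 by the methods' t-test, 3 (with SOX4) when scaled to the array median and with all 12 arrays in one fit, and 0 to 1 on leaving out 1 clone, where 2 control clones leave too few arrays to test SOX11 and SOX17. In knockdown clones the count of 0 became 1 (SOX17) with all 12 arrays in one fit. Over all clones the count of 3 was 1 with the filter on every array and 1 to 2 on leaving out 1 clone. The interaction count of 1 was 0 with normexp and quantile normalization, without a filter, with the filter on every array and on leaving out any 1 clone (0 to 0). Where no construction is named, the cause was not tested.

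With the clone as a replicate block, the counts were 2 in control clones, 0 in knockdown clones, 3 over all clones and 0 for the interaction. With replicate block and slide together they were 0, 1, 2 and 0. With both, the control value is that of clone 3, whose arrays share a slide. SOX17 was then 5.09 (limma adjusted p = 0.0718) and SOX11 3.39 (limma adjusted p = 0.075). No alternative reversed a called SOX difference.

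Over all probes the counts ranged from 4 to 93 around 34 in mock clones, from 0 to 7730 around 24 in treated clones, from 0 to 5346 around 1286 in control clones, from 0 to 746 around 521 in knockdown clones, from 1412 to 8535 around 3611 over all clones and from 1 to 14 around 10 for the interaction. Scaling to the array median moved the median difference for 5-aza-dC over all clones from -0.05 to -0.29 and the split of calls from 1988 higher and 1623 lower to 1699 and 6836. In control clones the median moved from -0.02 to -0.23 and the split from 948 and 338 to 889 and 1630. SOX11 and SOX17 stayed called as higher in control clones and SOX4 as lower over all clones under that scaling. Signals near background limit SOX2, SOX7, SOX9 and SOX18 to bounds.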
